A study of Mus musculus with 12 samples.

Results

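Integrins, syndecans and glypicans are receptors on the cell surface through which fibroblasts grip their matrix and hold growth factors near it. Their genes were found by symbol alone, with no measured value used. The rule took integrin alpha chains (Itga and a number, a number and b, or 1 of the letters v, x, m, d, l and e), integrin beta chains Itgb1 to Itgb8, syndecans Sdc1 to Sdc4 and glypicans Gpc1 to Gpc6. It found 36 of the 32544 genes in the deposited table, namely 26 integrin chains, 4 syndecans and 6 glypicans. Of these, 32 passed the filter on low counts and were tested. Gpc5, Itgal, Itgax and Itgb6 did not pass and had between 0 and 6 counts in any library. Itgad passed only through the group in which it was high, so its difference from the other groups is partly a matter of the filter. Itga2, Gpc3 and Itgb8 passed only through groups other than the one in which they were lowest (CrOE EV, below), so their falls there are partly so too.

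An integrin is a pair of 1 alpha and 1 beta chain, and the pair sets which matrix protein is bound: fibronectin and vitronectin through their RGD peptide, collagen, or laminin. Syndecans span the membrane and glypicans are anchored to it by a lipid; both carry heparan sulfate chains that bind matrix proteins and growth factors. In fibroblasts, syndecan 4 works beside integrin α5β1 in building focal adhesions on fibronectin, and integrins of the αv chain also release active TGFβ from its stored form.

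RNA was measured in bulk in 3T3 cells, a line of mouse fibroblasts, in 4 groups of 3 libraries each. Cells were left without vesicles (untreated) or received extracellular vesicles (EVs, membrane-bound particles that cells release) for 24 h. The donor of the vesicles was the human breast cancer line MDA-MB-468, as a control line (shCon), a line with CRIPTO knocked down (shCr) and a line made to overexpress CRIPTO (CrOE). CRIPTO is a protein of the cell surface, and only the donor cells were altered in it. Each donor state is 1 line, the dose of vesicles is not given in the labels used here, and no group received vesicles from cells of another kind or a mock preparation. The labels do not say whether the 3 libraries of a group came from separate cultures, so p-values measure the spread between these libraries, which may be technical. The columns of the CrOE EV group were matched to it by elimination, because their headers carry the name of the protein only.

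The libraries held 25960054 to 37774020 counts, of which the 36 genes took 0.183 to 0.303%. The CrOE EV libraries stood apart from the other 9 on the first principal component (108.7 to 113 against -41.8 to -29.7), which held 73.7% of the variance of log2 CPM. Within the shCr EV group, replicate 1 stood apart from replicates 2 and 3 for several genes described here, and calls that rest on it are given with and without it. All 10 fibroblast markers passed the filter, and 1 of them, Lum, had at most 3 counts in each CrOE EV library. Their summed level moved with the groups, at 19252 to 20746 CPM in untreated libraries, 24431 to 24766 with shCon EVs, 15102 to 17255 with shCr EVs and 8470.0 to 8847 with CrOE EVs. Group means of Col1a1 were 4535 CPM in untreated cells and 721 with CrOE EVs, those of Pdgfra 1083 and 121, and those of Fn1 4147 and 3760.0. The 8 endothelial markers, of which 4 passed the filter, summed to 2.35 to 3.30 CPM in untreated libraries and 17.9 to 20.4 with CrOE EVs, most of it Vwf, with Cldn5 and Emcn at no more than 3 counts in every library. Tek, Pecam1 and Kdr, which also passed, were at 0.223, 0.286 and 0.136 CPM in untreated cells and 1.18, 0.648 and 0.403 with CrOE EVs. The 10 epithelial markers, of which 3 passed, summed to 1.17 to 1.99 CPM in untreated libraries and 2.53 to 3.58 with CrOE EVs. Group means in untreated and CrOE EV cells were 0 and 1.15 for Cldn4, 0.346 and 0.849 for Krt18, and 0.942 and 0.621 for Krt19. The part of these markers in the results with CrOE EVs was not tested. The mouse gene of CRIPTO, Tdgf1, had 0 to 3 counts in every library, and human RNA carried by the vesicles was not analysed here. In bulk RNA, fewer cells of a type and less RNA per cell cannot be told apart.

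Levels are CPM (read counts scaled to a common library size) after TMM, a correction for composition between libraries, and are given as the mean ± SD of 3 libraries. Differences are log2 fold changes, with a standard error or a 95% interval. A gene was called when its adjusted p was under 0.05, and adjusted p-values come from the quasi-likelihood test of edgeR, adjusted by Benjamini-Hochberg over the 14279 genes tested. The comparisons of the 3 EV groups with untreated cells share the same untreated libraries, so the values of each stand side by side below without being read as independent of one another.

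Against untreated cells, these receptors changed most in number and size with CrOE EVs, where falls outnumbered rises. With shCon EVs, 16 of the 32 tested were called, against 38.1% of all genes. Of these, 9 were higher and 7 lower, where 18.0% of all genes were higher and 20.2% lower. With shCr EVs, 15 were called, against 37.3% of all genes, 7 of them higher (18.4% of all genes) and 8 lower (18.8%). With CrOE EVs, 25 were called, against 73.7% of all genes, so that the share called was close to that of the transcriptome. The direction was uneven: 5 were higher, against 36.7% of all genes, and 20 were lower, against 37.0%. A fall of at least 2-fold was found for 13 members (18.7% of all genes) and a rise of that size for 3 (11.0%). Without Itgad, which passed the filter only through the CrOE EV group, 4 of 31 were higher and 2 rose at least 2-fold. The 20 lower and the 13 that fell at least 2-fold hold Itga2, Gpc3 and Itgb8, which passed the filter through the other groups. The median log2 fold change of the 32 was -0.80 with CrOE EVs, against 0.01 for all genes tested, and it was 0.01 with shCon EVs and -0.10 with shCr EVs. Across all 4 groups, 29 differed in a joint F-test, Itgad among them, against 81.3% of all genes. Itga9, Itgae and Itgam did not pass that test.

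**Figure D1:**
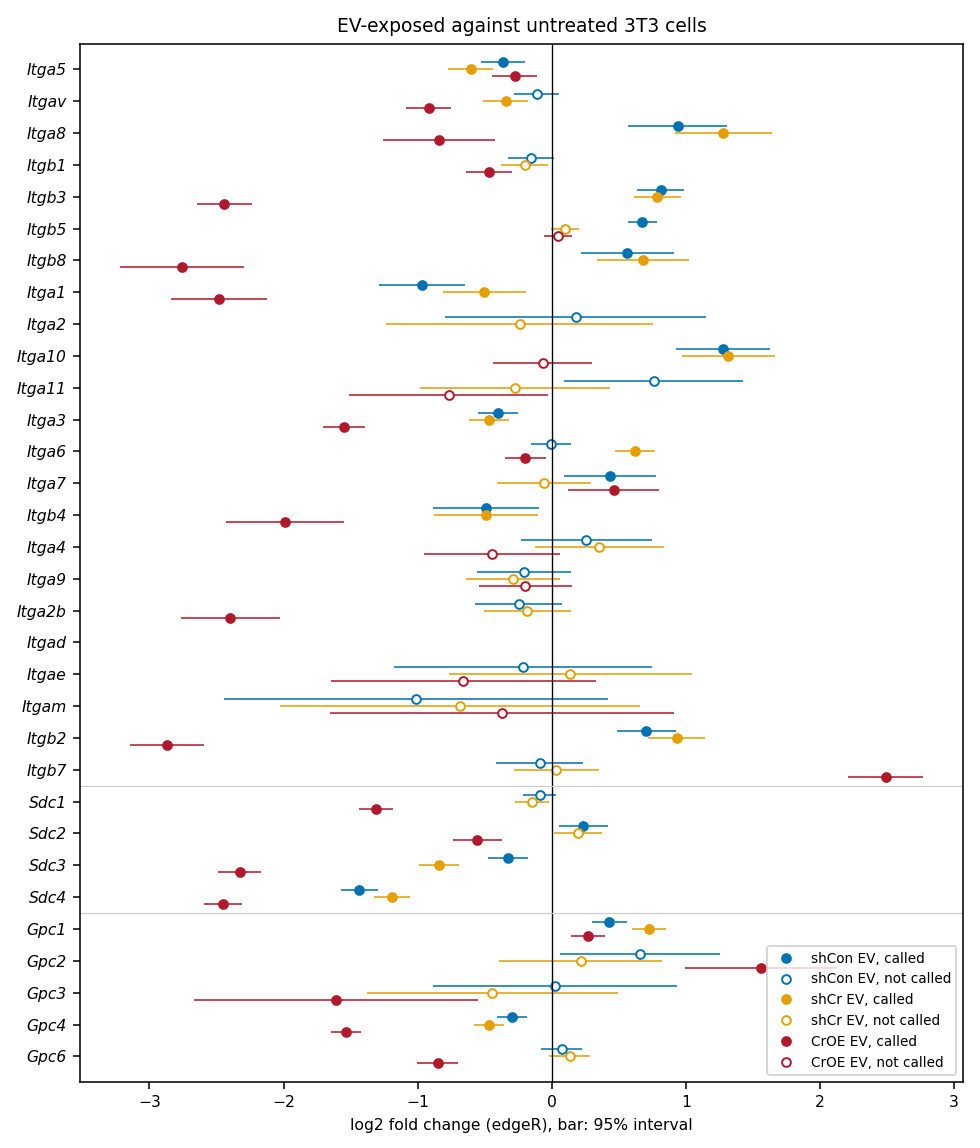
Log2 fold change (edgeR, horizontal axis) of each tested receptor gene in the 3 EV groups against untreated 3T3 cells, with 95% intervals; filled points passed an adjusted p of 0.05, and values against a group with at most 3 counts in every library (Itga2 with CrOE EVs, Itgad in all comparisons) are left out. Most CrOE EV points lie to the left of 0, such as Sdc4 at -2.45, while Itgb7 lies at 2.49.

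All 4 syndecans fell with CrOE EVs, and Sdc3 and Sdc4 also fell with both other vesicle types. Sdc4, the syndecan of focal adhesions, stood at 169.9, 170.5 and 167 CPM in untreated libraries, 60.9, 61.7 and 65.4 with shCon EVs, 80.2, 71.8 and 70.6 with shCr EVs and 29.8, 33.3 and 29.8 with CrOE EVs. No 2 groups overlapped, and the untreated cells were the highest. The fall was 2.7-fold with shCon EVs (log2 -1.43 ± 0.06 SE, adjusted p = 7.88e-09), 2.28-fold with shCr EVs (-1.19 ± 0.06, 2.16e-08) and 5.46-fold with CrOE EVs (-2.45 ± 0.06, 2.87e-12). It was the only member to fall at least 2-fold in all 3 comparisons.

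Sdc3, the syndecan first known from nerve and muscle, stood at 158, 166 and 157 CPM in untreated libraries, 129, 126 and 128 with shCon EVs, 79.7, 96.3 and 93 with shCr EVs and 30.0, 33.9 and 32 with CrOE EVs. The groups formed 4 separate steps downward in that order. Against untreated cells the log2 difference was -0.33 (95% interval -0.48 to -0.18) with shCon EVs, -0.84 (-0.99 to -0.69) with shCr EVs and -2.33 (-2.49 to -2.17) with CrOE EVs, with adjusted p of 0.00241, 1.18e-06 and 1.3e-11. Without shCr EV replicate 1, the lowest of its group, the gene was still called lower in all 3. Antisense genes overlap 6.93% and 0.801% of its exon bases, and whether reads were counted by strand is not given in the sources used here.

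Sdc1 and Sdc2 moved mainly with CrOE EVs. Sdc1, the main syndecan of epithelia, was at 130.0 ± 5.68 CPM in untreated cells, 122 ± 5.53 with shCon EVs and 118 ± 6.99 with shCr EVs, and fell to 52.5 ± 1.02 with CrOE EVs (log2 -1.31 ± 0.06, adjusted p = 3.6e-10). Its difference with shCr EVs, -0.15 (interval -0.27 to -0.02), was not called (adjusted p = 0.0625), although it was without untreated replicate 3 (0.0464) or shCr EV replicate 1 (0.0131), by the DESeq2 Wald test (0.0392) and with at least 10 counts in every library (0.0481). Sdc2, the syndecan typical of mesenchymal cells, led the family per length in all 3 EV groups. It was at 175, 153 and 166 CPM in untreated libraries, 192, 192 and 199 with shCon EVs, 218, 174 and 175 with shCr EVs and 109, 119 and 109 with CrOE EVs, and shCr EV replicate 1 was the highest library of all. It fell with CrOE EVs (-0.55 ± 0.08, 5.33e-05). The small rise with shCon EVs (0.24, adjusted p = 0.0398) was lost without untreated replicate 2 (0.114) or 3 (0.0881), shCon EV replicate 1 (0.0715), 2 (0.0838) or 3 (0.106), or CrOE EV replicate 1 (0.0531) or 3 (0.0518). With shCr EVs the difference was 0.20 (adjusted p = 0.0851), called only without shCr EV replicate 2 (0.0489).

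**Figure D2:**
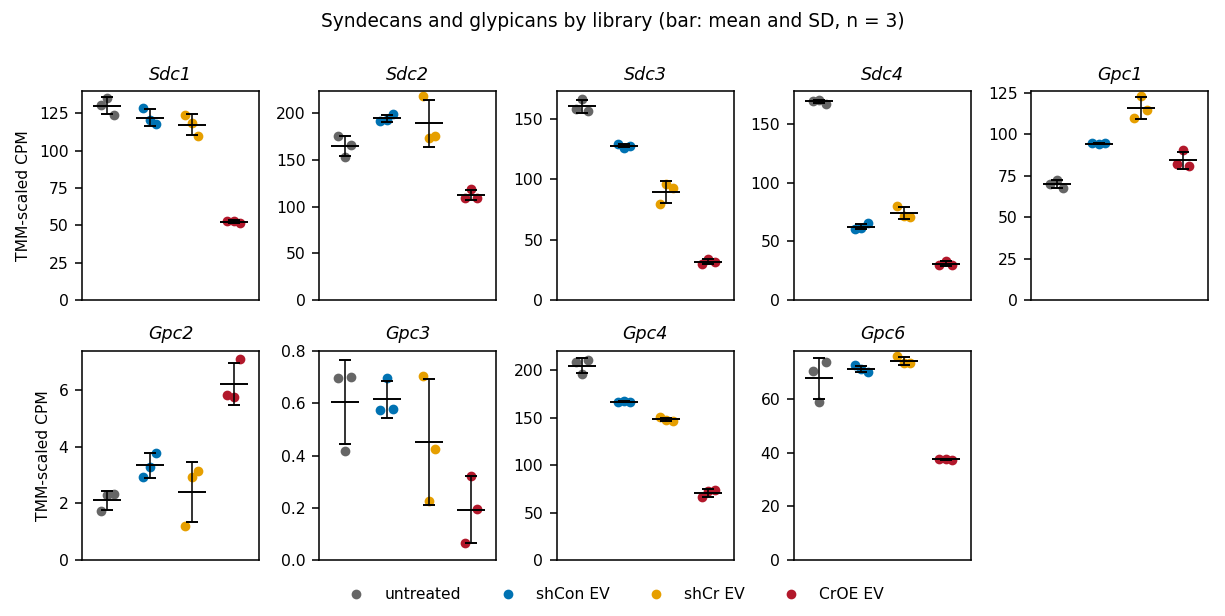
TMM-scaled CPM (vertical axis, from 0) of the 4 syndecans and the 5 tested glypicans in each library of the 4 groups, with the mean and SD of 3 libraries. Sdc3 and Sdc4 fall to about 30 CPM with CrOE EVs, while Gpc1 is lowest in untreated cells and Gpc2 is highest with CrOE EVs.

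Sdc1, Sdc3 and Sdc4 each fell at least 2-fold with CrOE EVs, and their promoters were set out from RefSeq (mouse build GRCm38.p6), with that of Itgb5, which rose with shCon EVs alone, and of Itgb7, which rose with CrOE EVs alone. Each sequence is the 250 bases before the start of the gene, 5′ to 3′ on the strand of the gene (plus for Sdc1, Sdc3 and Itgb5, minus for Sdc4 and Itgb7). Capitals mark every match, on either strand, to the motifs searched.
Sdc4: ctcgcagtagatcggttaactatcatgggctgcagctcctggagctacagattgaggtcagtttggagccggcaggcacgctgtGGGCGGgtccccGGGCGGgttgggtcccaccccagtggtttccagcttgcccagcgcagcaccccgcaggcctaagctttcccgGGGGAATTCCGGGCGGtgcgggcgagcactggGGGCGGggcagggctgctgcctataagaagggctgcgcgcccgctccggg
Sdc3: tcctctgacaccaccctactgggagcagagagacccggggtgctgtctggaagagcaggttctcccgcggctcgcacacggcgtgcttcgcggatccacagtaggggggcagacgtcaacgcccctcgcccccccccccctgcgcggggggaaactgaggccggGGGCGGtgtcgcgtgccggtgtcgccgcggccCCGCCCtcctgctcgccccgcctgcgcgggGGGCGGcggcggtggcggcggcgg
Sdc1: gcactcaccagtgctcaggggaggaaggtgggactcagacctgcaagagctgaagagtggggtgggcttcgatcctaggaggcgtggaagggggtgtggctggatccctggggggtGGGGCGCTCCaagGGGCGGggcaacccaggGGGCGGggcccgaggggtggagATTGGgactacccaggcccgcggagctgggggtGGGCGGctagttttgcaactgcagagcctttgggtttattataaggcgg
Itgb5: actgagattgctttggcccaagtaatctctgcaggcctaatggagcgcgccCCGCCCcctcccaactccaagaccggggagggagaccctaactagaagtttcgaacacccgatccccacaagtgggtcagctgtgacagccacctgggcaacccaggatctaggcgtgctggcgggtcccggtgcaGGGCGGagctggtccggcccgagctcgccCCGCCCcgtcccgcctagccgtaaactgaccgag
Itgb7: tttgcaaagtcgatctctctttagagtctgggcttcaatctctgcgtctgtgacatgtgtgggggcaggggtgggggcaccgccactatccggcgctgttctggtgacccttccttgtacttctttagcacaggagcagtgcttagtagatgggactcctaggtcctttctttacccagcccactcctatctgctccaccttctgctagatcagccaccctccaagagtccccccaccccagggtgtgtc
The motifs were the GC box (GGGCGG), the CCAAT box (these letters), the TATA box (spelled TATAAA), the AP-1 site (spelled TGANTCA), the CRE (TGACGTCA), the E-box (spelled CACGTG), the TEAD site (spelled GGAATG), the SMAD element (GTCTAGAC) and, by name, the ISRE, the CArG box and the NF-kB site. The Sdc4 sequence held 4 GC boxes and 1 NF-kB match, and the last bases of the NF-kB match abut a GC box. The Sdc1 sequence held 3 GC boxes, 1 CCAAT box and 1 NF-kB match, and those of Sdc3 and Itgb5 held 3 GC boxes each. No searched motif was found in the Itgb7 sequence. RefSeq entries matched 25 of the 36 members, with 27 sequences. A GC box was in 14 of these (51.9%) against 32.7% of 32851 mouse promoters, an NF-kB match in 7.41% against 7.25%, a CCAAT box in 22.2% against 33.8% and a TATA box in 3.7% against 12.4%. A match is a run of letters and was not tested as a binding site.

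Among glypicans, Gpc1 was higher and Gpc4 lower in every EV group than in untreated cells. Gpc4, a glypican that modulates Wnt and FGF signals, led the family per length in every group. It stood at 209, 196 and 211 CPM in untreated libraries, 167, 168 and 167 with shCon EVs, 150.5, 148 and 147 with shCr EVs and 66.4, 72.4 and 74.2 with CrOE EVs. Its 4 groups did not overlap. The log2 difference from untreated cells was -0.30 (interval -0.41 to -0.19) with shCon EVs, -0.47 (-0.58 to -0.36) with shCr EVs and -1.53 (-1.64 to -1.42) with CrOE EVs, with adjusted p of 0.000552, 1.23e-05 and 2.46e-11.

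Gpc1, a co-receptor for FGF and a glypican found raised in tumours, stood at 69.9, 72.8 and 67.6 CPM in untreated libraries, 94.6, 94.2 and 94.8 with shCon EVs, 109.9, 123 and 115 with shCr EVs and 82.4, 90.4 and 80.8 with CrOE EVs. Every EV library lay above every untreated one, and the shCr EV libraries were the highest. The rise was 1.35-fold with shCon EVs (adjusted p = 9.76e-05), 1.65-fold with shCr EVs (1.01e-06) and 1.21-fold with CrOE EVs (0.00106). Exons of Ankmy1, on the other strand, cover 18.9% of the Gpc1 exon bases; Ankmy1 itself was at 0.107 to 0.164 CPM in group means.

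The other 3 tested glypicans were called against untreated cells with CrOE EVs only. Gpc6, the nearest relative of Gpc4, was at 67.8 ± 7.81, 71.4 ± 1.17 and 74.4 ± 1.49 CPM in untreated, shCon EV and shCr EV cells and fell to 37.6 ± 0.139 with CrOE EVs (log2 -0.85 ± 0.07, adjusted p = 1.69e-07). Gpc2, a glypican of developing nerve cells, was at 1.72, 2.29 and 2.32 CPM in untreated libraries, 2.93, 3.29 and 3.78 with shCon EVs, 1.2, 2.92 and 3.13 with shCr EVs and 5.84, 5.73 and 7.08 with CrOE EVs, where it was highest (1.56 ± 0.26, 0.00013). Replicate 1 of the shCr EV group was the lowest of all 12. Without that library, Gpc2 was called higher than in untreated cells with shCr EVs (0.52, adjusted p = 0.0269) and with shCon EVs (0.66, 0.0041). In the fit of all 12 libraries neither was called (0.584 and 0.0768), and in a model of only the shCon EV and untreated libraries the latter was (0.0122). Of its 31-base stretches, 52.0% also occur in Gm43720, so its counts are uncertain; Gm43720 was at 0.0529 to 0.184 CPM. Gpc3, mutated in an overgrowth syndrome, had 19, 11 and 19 counts in untreated libraries and 2, 11 and 7 with CrOE EVs, and was called lower there (-1.61, interval -2.67 to -0.55, adjusted p = 0.00958). It had 16, 21 and 16 counts with shCon EVs and 20, 7 and 16 with shCr EVs, neither of which was called. Gpc3 passed the filter only through groups other than CrOE EV, so its fall with CrOE EVs is partly a matter of the filter.

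The fibronectin and RGD integrins split by chain: the abundant Itga5, Itgav and Itgb1 were at or below the untreated level in each EV group, while Itgb3, Itgb8 and Itga8 were higher with shCon and shCr EVs and lower with CrOE EVs. Of the 7 tested chains in this group, 5 were called with shCon EVs (4 higher, 1 lower), 5 with shCr EVs (3 higher, 2 lower) and 6 with CrOE EVs (0 higher, 6 lower), against 38.1, 37.3 and 73.7% of all genes. The 6 hold Itgb8, which passed the filter only through groups other than CrOE EV.

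Itga5, the alpha chain of the fibronectin receptor, stood at 241, 259 and 253 CPM in untreated libraries, 187, 198 and 201 with shCon EVs, 141, 177 and 177 with shCr EVs and 206, 212 and 205 with CrOE EVs. All EV libraries lay below the untreated ones. It fell by 1.29-fold with shCon EVs (adjusted p = 0.0025), 1.52-fold with shCr EVs (4.95e-05) and 1.21-fold with CrOE EVs (0.00571), the smallest called fall with CrOE EVs other than that of Itga6. Its partner Itgb1, the beta chain shared by most integrins of fibroblasts, was the highest member per length in every group. It was at 1156, 1013 and 1145 CPM in untreated libraries, 1009.5, 995 and 976 with shCon EVs, 1098, 894 and 890.3 with shCr EVs and 793, 831 and 771 with CrOE EVs. It fell with CrOE EVs (log2 -0.47 ± 0.08, adjusted p = 0.000155). With shCr EVs its difference was -0.20 (0.0664), called without shCr EV replicate 1, the high library (0.000518), or without untreated replicate 2 (0.0267), by the DESeq2 Wald test (0.0411) and with at least 10 counts in every library (0.0476). With shCon EVs it was -0.15 (0.154), called without shCr EV replicate 1 (0.0219) or in a model of only these groups (0.0365). Itgav, the alpha chain of the vitronectin receptors, was at 202 ± 19.1 CPM in untreated cells, 187 ± 4.4 with shCon EVs, 159.7 ± 13.6 with shCr EVs and 107 ± 6.22 with CrOE EVs. It fell with shCr EVs (-0.34 ± 0.08, 0.00369) and with CrOE EVs (-0.92 ± 0.08, 2.1e-07).

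The beta chains that pair with αv took different courses. Itgb3, the β3 chain of the vitronectin receptor, stood at 23.6, 22.7 and 22.2 CPM in untreated libraries, 41.1, 40.3 and 39.1 with shCon EVs, 39.7, 42.8 and 35.8 with shCr EVs and 3.93, 4.8 and 3.87 with CrOE EVs. The shCon and shCr EV libraries overlapped each other, lay above all untreated ones, and the CrOE EV libraries lay below. It rose 1.76-fold with shCon EVs (adjusted p = 6.49e-06) and 1.73-fold with shCr EVs (7.48e-06), and fell 5.43-fold with CrOE EVs (7.85e-11). Itgb8, whose αv pair activates TGFβ, stood at 2.67, 2.33 and 2.06 CPM in untreated libraries, 3.4, 3.69 and 3.35 with shCon EVs, 4.16, 4.07 and 3.15 with shCr EVs and 0.317, 0.436 and 0.281 with CrOE EVs, the last from 10, 15 and 10 counts. It was 1.61-fold higher with shCr EVs (0.00431) and fell 6.76-fold with CrOE EVs (7.83e-08). Itgb8 passed the filter only through groups other than CrOE EV, so this fall is partly a matter of the filter. The fall was also called with at least 10 counts in every library. The 1.48-fold rise with shCon EVs (0.0145) was lost without untreated replicate 3 (0.067) or shCon EV replicate 2 (0.0575). Itga8, an RGD-binding alpha chain of mesenchymal cells that pairs with β1, was at 1.65, 1.72 and 1.14 CPM in untreated libraries, 3.11, 2.72 and 2.81 with shCon EVs, 3.88, 3.75 and 3.34 with shCr EVs and 0.729, 0.96 and 0.814 with CrOE EVs. Its log2 difference was 0.94 ± 0.17 with shCon EVs, 1.28 ± 0.17 with shCr EVs and -0.84 ± 0.19 with CrOE EVs, with adjusted p of 0.000852, 5.84e-05 and 0.00149. An antisense gene covers 5.05% of the Itga8 exon bases.

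Itgb5, the β5 chain that binds vitronectin, rose with shCon EVs only. It stood at 216, 214 and 217 CPM in untreated libraries, 341, 348 and 345 with shCon EVs, 229.5, 241 and 224 with shCr EVs and 213, 234 and 220.5 with CrOE EVs. The 3 shCon EV libraries lay above the other 9. The rise was 1.6-fold (log2 interval 0.57 to 0.78, adjusted p = 3.51e-07), and the group was also higher than both other EV groups (shCr EV against shCon EV -0.58 ± 0.05, 1.81e-05; CrOE EV against shCon EV -0.63 ± 0.05, 8.08e-08). Against untreated cells the difference with shCr EVs was 0.10 (interval 0.00 to 0.21) and with CrOE EVs 0.05 (-0.06 to 0.15), neither of them called.

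**Figure D3:**
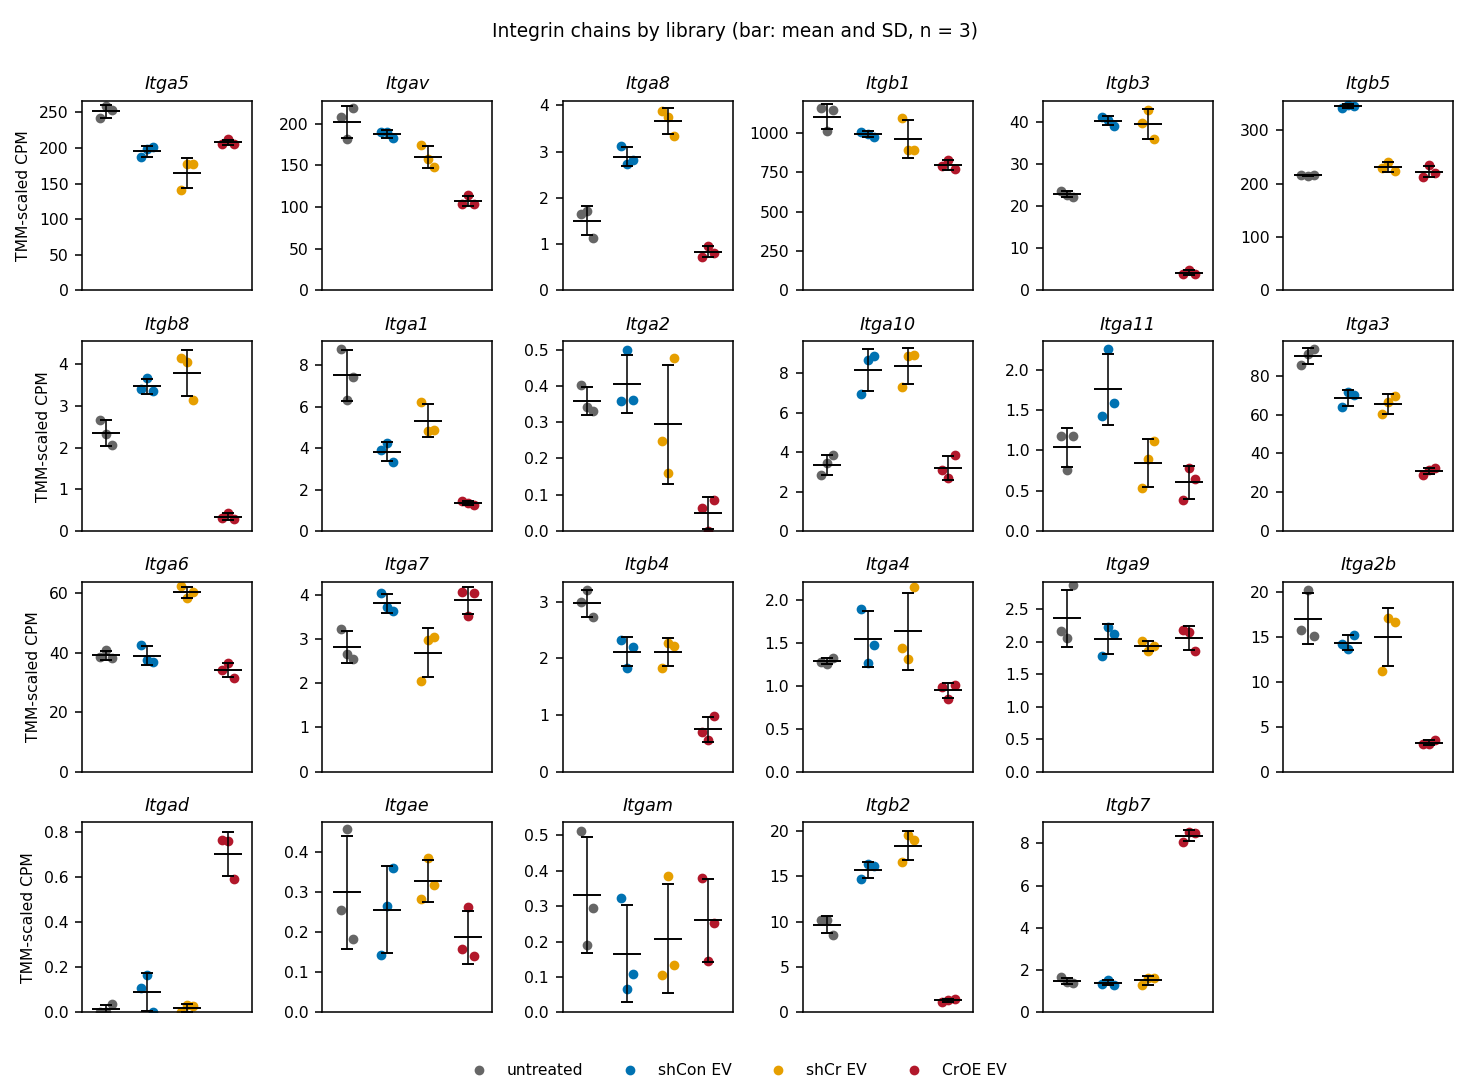
TMM-scaled CPM (vertical axis, from 0, scaled per gene) of the 23 tested integrin chains in each library of the 4 groups, with the mean and SD of 3 libraries. Itgb5 is high in the 3 shCon EV libraries, Itga6 in the 3 shCr EV libraries, and Itgb7 and Itgad in the 3 CrOE EV libraries.

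The collagen-binding alpha chains, which pair with β1, were at low levels and did not move as one. Itga10, the α10 chain of cartilage, stood at 2.82, 3.43 and 3.83 CPM in untreated libraries, 6.94, 8.67 and 8.86 with shCon EVs, 7.3, 8.84 and 8.93 with shCr EVs and 3.08, 2.68 and 3.85 with CrOE EVs. It rose 2.43-fold with shCon EVs (adjusted p = 4.77e-05) and 2.49-fold with shCr EVs (3.27e-05). With CrOE EVs it was -0.07 on the log2 scale (interval -0.44 to 0.30), not called. Of its 31-base stretches, 31.8% also occur in Gm42957, which was at 0.125 to 0.448 CPM, so its counts are uncertain. Itga1, the α1 chain that binds collagen IV, stood at 8.79, 6.33 and 7.43 CPM in untreated libraries, 3.9, 4.25 and 3.35 with shCon EVs, 6.24, 4.84 and 4.9 with shCr EVs and 1.43, 1.37 and 1.24 with CrOE EVs. It was lower in each, by 1.96-fold (0.000238), 1.42-fold (0.0148) and 5.59-fold (1.75e-08). The call with shCr EVs was lost without untreated replicate 1 (0.0728) or shCr EV replicate 2 (0.0599) or 3 (0.0558).

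Itga11 and Itga2 had the fewest counts of this group. Itga11, the α11 chain of fibroblasts that binds collagen I, was at 1.04 ± 0.238 CPM in untreated cells, 1.76 ± 0.439 with shCon EVs, 0.846 ± 0.295 with shCr EVs and 0.604 ± 0.206 with CrOE EVs, and no difference from untreated cells was called. That with CrOE EVs (-0.77, adjusted p = 0.0573) was called without untreated replicate 2 (0.0348), shCr EV replicate 1 (0.0359) or CrOE EV replicate 2 (0.0382), with at least 10 counts in every library (0.0467) or in a model of only these groups (0.0466). That with shCon EVs (0.76, 0.0695) was called without shCr EV replicate 1 (0.0377) or in a model of only these groups (0.0374). Itga2, the α2 chain of the collagen I receptor, had 11, 9 and 9 counts in untreated libraries, 10, 15 and 10 with shCon EVs, 7, 5 and 18 with shCr EVs and 2, 0 and 3 with CrOE EVs. The fall with CrOE EVs was called (adjusted p = 0.00156), and untreated cells had 7.29 times its summed level there (95% counting interval 2.79 to 24.1). Itga2 passed the filter only through groups other than CrOE EV, so this fall is partly a matter of the filter.

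Chains of laminin receptors gave the 1 integrin gene that shCr EVs alone raised. Itga6, the α6 chain of laminin receptors, stood at 38.5, 40.9 and 38.2 CPM in untreated libraries, 42.6, 37.6 and 37 with shCon EVs, 62.4, 58.5 and 60.3 with shCr EVs and 34.3, 36.6 and 31.7 with CrOE EVs. The 3 shCr EV libraries lay above the other 9. The rise with shCr EVs was 1.54-fold (log2 interval 0.47 to 0.77, adjusted p = 1.47e-05), and with shCon EVs the difference was 0.00 (-0.15 to 0.15). With CrOE EVs it was lower by 1.15-fold (0.0218), a call lost without untreated replicate 2 (0.0713) or CrOE EV replicate 1 (0.0522) or 3 (0.109).

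Itga3, the α3 chain of laminin receptors in epithelia, fell in all 3 EV groups. Its libraries read 85.9, 91.2 and 94.1 CPM in untreated cells, 64, 71.6 and 70.3 with shCon EVs, 60.1, 66.7 and 69.8 with shCr EVs and 29.1, 31.4 and 32.3 with CrOE EVs. The falls were 1.32-fold (adjusted p = 0.000614), 1.38-fold (0.000172) and 2.92-fold (4.54e-10). Itgb4, the partner of α6 in hemidesmosomes, was at 2.98 ± 0.241 CPM in untreated cells and 0.744 ± 0.219 with CrOE EVs (3.97-fold lower, 1.27e-06). Its smaller falls with shCon EVs (-0.49, 0.0494) and shCr EVs (-0.49, 0.049) sat at the threshold. The first was lost without any 1 of the libraries save shCr EV replicate 1 and CrOE EV replicates 2 and 3, with adjusted p of 0.0584 to 0.176. The second was lost without any 1 of the libraries save CrOE EV replicates 2 and 3, with adjusted p of 0.0561 to 0.121. Both were also lost by the DESeq2 Wald test (0.0616 and 0.0567) and with no filter (0.0751 and 0.0692), and the second in a model of only these groups (0.0535). Itga7, the α7 chain of muscle, was at 2.81 ± 0.363, 3.8 ± 0.214, 2.69 ± 0.561 and 3.87 ± 0.307 CPM in untreated, shCon EV, shCr EV and CrOE EV cells. Its rise with shCon EVs (adjusted p = 0.0472) was lost without any 1 of the libraries save untreated replicate 1 and shCr EV replicates 1 and 3, with adjusted p of 0.053 to 0.155, by the DESeq2 Wald test (0.0548) and with no filter (0.0673). Its rise with CrOE EVs (0.0174) was lost without untreated replicate 2 (0.0504) or 3 (0.0712).

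The α4 and α9 chains, which bind fibronectin splice segments, VCAM1 and tenascin, were not called against untreated cells in any EV group. Itga4 was at 1.29 ± 0.0338, 1.55 ± 0.323, 1.64 ± 0.448 and 0.946 ± 0.0896 CPM in untreated, shCon EV, shCr EV and CrOE EV cells, and Itga9 at 2.36 ± 0.442, 2.05 ± 0.228, 1.93 ± 0.0755 and 2.06 ± 0.184. The 95% intervals of the log2 difference from untreated cells with CrOE EVs were -0.95 to 0.06 for Itga4 and -0.54 to 0.15 for Itga9.

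Of the chains usually found on leukocytes and platelets, 6 of 8 passed the filter. With CrOE EVs 4 were called, 2 higher and 2 lower, where 73.7% of all genes were called (36.7% higher, 37.0% lower). Itgad is among these 4 and passed only through the CrOE EV group. Itgb2, the β2 chain of leukocyte integrins, stood at 10.2, 10.2 and 8.57 CPM in untreated libraries, 14.7, 16.3 and 16.2 with shCon EVs, 16.6, 19.6 and 19 with shCr EVs and 1.11, 1.37 and 1.46 with CrOE EVs, in 4 groups that did not overlap. It rose 1.63-fold with shCon EVs (adjusted p = 0.000128) and 1.91-fold with shCr EVs (1.08e-05), and fell 7.31-fold with CrOE EVs (3.22e-10). Of its alpha partners, Itgal, Itgax and Itgam were at most 0.332 CPM in any group mean, and Itgad was highest with CrOE EVs, at 0.702 ± 0.0977 CPM, where Itgb2 was lowest. The 10 leukocyte markers summed to 49.8 to 60.7 CPM in untreated libraries, 82.6 to 93.7 with shCon EVs, 131 to 194 with shCr EVs and 4.92 to 6.28 with CrOE EVs. In all but the CrOE EV group, most of that was Lyz2, a lysozyme of myeloid cells, at 46.9 ± 4.86, 78 ± 5.98, 146 ± 35 and 1.25 ± 0.138 CPM. Of the 10, 4 passed the filter: Lyz2, Cd68, Csf1r and Coro1a. In untreated, shCon EV, shCr EV and CrOE EV cells, Cd68 was at 5.64, 5.60, 5.56 and 3.05 CPM. Csf1r was at 2.43, 2.11, 2.20 and 1.00, and Coro1a at 1.16, 0.770, 1.03 and 0.255. The markers Adgre1, Cd3e and Tyrobp had at most 3 counts in every library, and Ptprc, the pan-leukocyte marker, was at 0.0711 to 0.130 CPM in group means. The part of other cell types in the Itgb2 result was not tested.

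Itgb7, the β7 chain of gut-homing lymphocytes, was the member that rose most with CrOE EVs on adequate counts. It stood at 1.65, 1.41 and 1.4 CPM in untreated libraries, 1.36, 1.53 and 1.3 with shCon EVs, 1.27, 1.63 and 1.64 with shCr EVs and 8.09, 8.55 and 8.48 with CrOE EVs. The 3 CrOE EV libraries lay above the other 9, and the rise was 5.62-fold (log2 interval 2.21 to 2.77, adjusted p = 1.44e-09). Its partners Itga4 and Itgae were not called higher there, at 0.946 ± 0.0896 and 0.187 ± 0.0655 CPM. Itgad, the αD chain of macrophages, had 0, 0 and 1 counts in untreated libraries, 3, 5 and 0 with shCon EVs, 0, 1 and 1 with shCr EVs and 24, 26 and 21 with CrOE EVs. The summed level with CrOE EVs was 56.5 times that of untreated cells (95% counting interval 9.81 to 2261, 1 count in the latter), a value given as a description because the gene passed the filter only through that group. Of its 31-base stretches, 17.5% also occur in other genes, chiefly Itgax. Cox6a2, on the other strand, shares 70 of its exon bases and was at 0.224 ± 0.101 CPM in untreated cells and 4.95 ± 0.439 with CrOE EVs. Its part in the Itgad counts was not tested.

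Itga2b, the αIIb chain of the platelet fibrinogen receptor, was at 15.7, 20.3 and 15.2 CPM in untreated libraries, 14.3, 13.6 and 15.2 with shCon EVs, 11.2, 17.1 and 16.7 with shCr EVs and 3.04, 3.08 and 3.57 with CrOE EVs. The first 3 groups overlapped, and the CrOE EV libraries lay 5.26-fold below the untreated ones (adjusted p = 3.39e-08). The 6 platelet markers summed to 6.02 to 6.74 CPM in untreated libraries, 2.88 to 3.22 with shCon EVs, 2.07 to 2.60 with shCr EVs and 1.19 to 2.33 with CrOE EVs, led by Ppbp in the first 3 groups, with Gp9 at no more than 3 counts in every library. Of the 2 that passed the filter, Ppbp was at 5.21, 1.84, 1.34 and 0.271 CPM in untreated, shCon EV, shCr EV and CrOE EV cells. Gp1ba went the other way with CrOE EVs, at 0.745, 0.782, 0.728 and 1.36 CPM, and led the list there. The part of these platelet markers in the Itga2b result was not tested. Itgae was at 0.299 ± 0.142, 0.256 ± 0.109, 0.328 ± 0.052 and 0.187 ± 0.0655 CPM in untreated, shCon EV, shCr EV and CrOE EV cells, and Itgam at 0.332 ± 0.164, 0.166 ± 0.137, 0.208 ± 0.154 and 0.26 ± 0.118, with no pair of groups called. Of the 31-base stretches of Itgam, 68.1% also occur in Gm49368, so its counts are uncertain.

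Knockdown of CRIPTO in the donor cells is addressed by the comparison of shCr EVs with shCon EVs, in which 5 of the 32 members were called, against 8.73% of all genes. Of these, Itga6, Gpc1 and Sdc4 were higher with shCr EVs, where 5.22% of all genes were, and Itgb5 and Sdc3 were lower, where 3.51% were. Itga6 was higher by 0.63 on the log2 scale (interval 0.48 to 0.78, adjusted p = 0.000132) and Gpc1 by 0.29 (0.17 to 0.42, 0.00778). Itgb5 was lower at -0.58 (-0.68 to -0.47, 1.81e-05) and Sdc3 at -0.51 (-0.66 to -0.36, 0.000608). None of these differences reached 2-fold. Sdc4 was higher by 0.24 (0.11 to 0.38, 0.029), a call lost without untreated replicate 1 (0.0529), shCon EV replicate 1 (0.127), 2 (0.118) or 3 (0.0531), or shCr EV replicate 1 (0.0543), and also with no filter (0.0568) or a model of only these groups (0.0944).

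The other 27 members were not called between these 2 groups, and their intervals set how large a difference could have been missed. For the abundant Itgb1 the interval was -0.22 to 0.13, for Itgb3 -0.20 to 0.14, for Itga3 -0.22 to 0.08, for Sdc1 -0.18 to 0.07, for Sdc2 -0.22 to 0.14 and for Gpc6 -0.09 to 0.21. Itga5 was at -0.24 (-0.41 to -0.08, adjusted p = 0.0742), called without shCr EV replicate 3 (0.0468). Itgav was at -0.23 (-0.40 to -0.06, 0.0883), called without untreated replicate 2 (0.0411) or shCr EV replicate 1 (0.017). Gpc4 was at -0.17 (-0.28 to -0.06, 0.0548), called without untreated replicate 2 (0.0364), shCr EV replicate 1 (0.0352) or CrOE EV replicate 1 (0.0408). Itga11 was at -1.03 (-1.70 to -0.36, 0.0581), called without shCr EV replicate 3 (0.0439). With all libraries kept, the DESeq2 Wald test called Itga5 (adjusted p = 0.0308), Itgav (0.0425), Gpc4 (0.00532) and Itga11 (0.0341). Gpc4 was also called with DESeq2 size factors (0.0456) and, like Itga11, with at least 10 counts in every library (0.0381 and 0.0458), and Itga11 with no filter (0.0478).

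**Figure D4:**
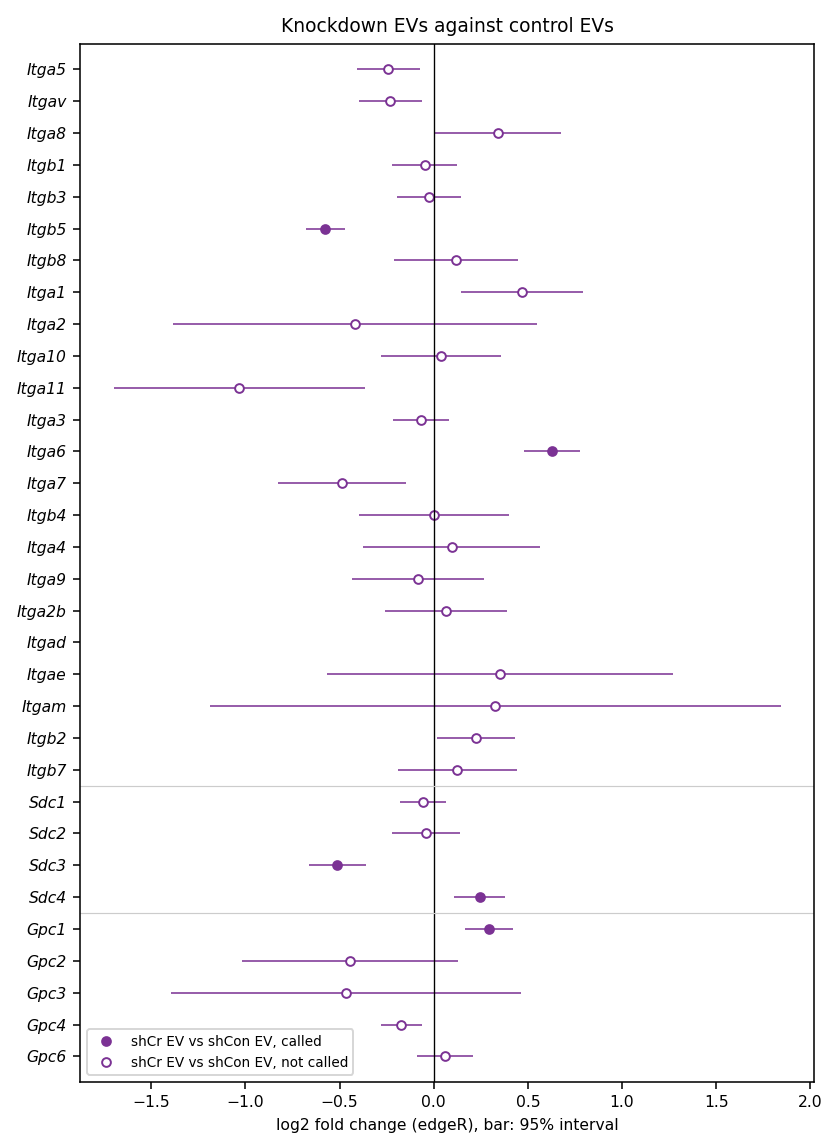
Log2 fold change (edgeR, horizontal axis) of each tested receptor gene in cells given shCr EVs against cells given shCon EVs, with 95% intervals; filled points passed an adjusted p of 0.05, and Itgad is left out because its shCr EV libraries had at most 1 count. The 5 filled points are Itgb5 and Sdc3 to the left of 0 and Itga6, Sdc4 and Gpc1 to the right, and no filled point reaches 1 in size.

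Overexpression of CRIPTO in the donor is addressed only by CrOE EVs against shCon EVs, as no group had vesicles from a control line made for overexpression. Overexpression and the making of that line thus cannot be told apart. In this comparison 27 members were called, against 72.6% of all genes. Of these, 3 (Itgb7, Gpc2 and Itgad, the last through the filter as above) were higher, where 36.5% of all genes were, and 24 were lower, where 36.1% were. The lower ones hold Itga2, Gpc3 and Itgb8, which passed the filter only through groups other than CrOE EV. The largest fitted falls were those of Itgb2 (11.9-fold, adjusted p = 3.88e-11), Itgb8 (9.99-fold, 9.04e-09) and Itgb3 (9.55-fold, 6.82e-12), chains that shCon EVs had raised over untreated cells. Sdc3 fell 4-fold (6.08e-11), Itga8 3.43-fold (1.16e-06), Itga11 2.89-fold (0.000812) and Itga10 2.54-fold (5.16e-06). Itga2 had 8.28 times the CrOE EV level with shCon EVs (counting interval 3.23 to 27.1). Itga5 (0.09, interval -0.08 to 0.25), Itga7, Itga9, Itgae and Itgam were not called. The calls of falls of Gpc1 (-0.16, 0.025), Itga6 (-0.19, 0.0242) and Itga4 (-0.70, 0.0141) did not hold in every fit with 1 library left out. That of Gpc1 was lost without shCon EV replicate 1 (0.0529), 2 (0.0561) or 3 (0.057) or CrOE EV replicate 1 (0.0896) or 3 (0.109). That of Itga6 was lost without shCon EV replicate 1 (0.119) or CrOE EV replicate 1 (0.057) or 3 (0.118), and that of Itga4 without shCon EV replicate 1 (0.0721).

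Against shCr EVs, CrOE EVs gave 26 called members, against 73.9% of all genes: 5 higher, where 36.9% of all genes were, and 21 lower, where 37.0% were. The higher ones were Itga5 (0.33, adjusted p = 0.00168), Itga7 (0.52, 0.00871), Gpc2 (1.34, 0.000319), Itgb7 (2.46, 1.26e-09) and Itgad, with 34 times the summed level (counting interval 9.08 to 286, 2 counts with shCr EVs). Without Itgad, which passed the filter only through the CrOE EV group, 25 of 31 were called and 4 were higher. Large falls were again those of Itgb2 (-3.80), Itgb8 (-3.44) and Itgb3 (-3.23), and Itga2b was at -2.22 and Itga8 at -2.12. Itgb8, like Itga2, passed the filter only through groups other than CrOE EV. Itga2 was also called lower, and its summed level with shCr EVs was 6.26 times that with CrOE EVs (counting interval 2.4 to 20.7). Gpc3 was at -1.17 (0.0504), called without shCr EV replicate 2 (0.0168) or CrOE EV replicate 2 (0.0202), with DESeq2 size factors (0.0494) or by the DESeq2 Wald test (0.0489).

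Levels of different genes were compared per length, as CPM per kilobase of exon, a scale on which Itgb1 led every group, at 271 ± 19.6 in untreated cells and 196 ± 7.41 with CrOE EVs. After it, untreated cells ranked Gpc4 (77.4 ± 3), Sdc4 (66.4 ± 0.643), Itgb5 (60.7 ± 0.363), Itga5 (50.9 ± 1.83) and Sdc2 (46.7 ± 3.15). Sdc4 and Itgb5 differed by more than their SDs, and so did Itgb5 and Itga5, while Itga5 and Sdc2 differed by less than the sum of their SDs. With shCon EVs the order was Itgb5 (97 ± 1.02), Gpc4 (63.1 ± 0.216) and Sdc2 (55.1 ± 1.11), with Sdc4 at 24.6 ± 0.928. With CrOE EVs it was Itgb5 (62.7 ± 3), Itga5 (42.1 ± 0.736), Sdc2 (31.8 ± 1.65) and Gpc4 (26.8 ± 1.54).

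Within each family, the make-up of the summed level per length also moved. Among syndecans, Sdc4 held 38.2 ± 0.451% in untreated cells and 18.5 ± 0.592%, 22.7 ± 0.0803% and 19.3 ± 0.335% with shCon, shCr and CrOE EVs, while Sdc2 held 26.8 ± 1.61%, 41.4 ± 0.638%, 41.5 ± 2.54% and 50.4 ± 0.301%. The leading syndecan was thus Sdc4 in untreated cells and Sdc2 in each EV group. Among glypicans, Gpc4 held 75.7 ± 0.148%, 67.4 ± 0.119%, 61.7 ± 1.01% and 53 ± 1.47%, and Gpc1 13.3 ± 0.985%, 19.6 ± 0.102%, 24.7 ± 1.22% and 32.4 ± 1.62%, in untreated, shCon EV, shCr EV and CrOE EV cells. Among beta chains, Itgb5 held 17.9 ± 0.976%, 27.4 ± 0.459%, 20.8 ± 1.99% and 23.9 ± 0.559%, and Itgb1 most of the rest. Among alpha chains, Itga5 held 53.3 ± 1.26%, 49.7 ± 0.832%, 45.9 ± 3.06% and 65.9 ± 0.488%, and Itga3 16.6 ± 0.365% in untreated cells and 8.48 ± 0.425% with CrOE EVs. With the longest transcript as length in place of all exon bases, levels per length rose by up to 2.09 times (Itga6). Of 144 levels, 73 moved by more than their SD. The rise differed by gene (1.12 times for Itga5, 1.52 for Itgav), so the shares above depend on the length used, beyond their SDs. Shares by the longest transcript were not computed.

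Summed over each family, CPM were lower with CrOE EVs in all of them. Syndecans summed to 624 ± 9.82 CPM in untreated cells, 507 ± 5.4 with shCon EVs, 470.1 ± 27.7 with shCr EVs and 228 ± 10.2 with CrOE EVs. Glypicans summed to 346 ± 13.3, 337 ± 0.872, 342 ± 5.65 and 199.6 ± 7.16 CPM, alpha chains to 621 ± 16.3, 529.9 ± 8.01, 491 ± 15.6 and 397 ± 11.7, and beta chains to 1359.8 ± 80.8, 1401 ± 15.7, 1258 ± 117 and 1036 ± 39.5. The sums of glypicans and of beta chains with shCon EVs lay near those of untreated cells, while Gpc1 and Itgb5 rose there and Gpc4 fell.

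**Figure D5:**
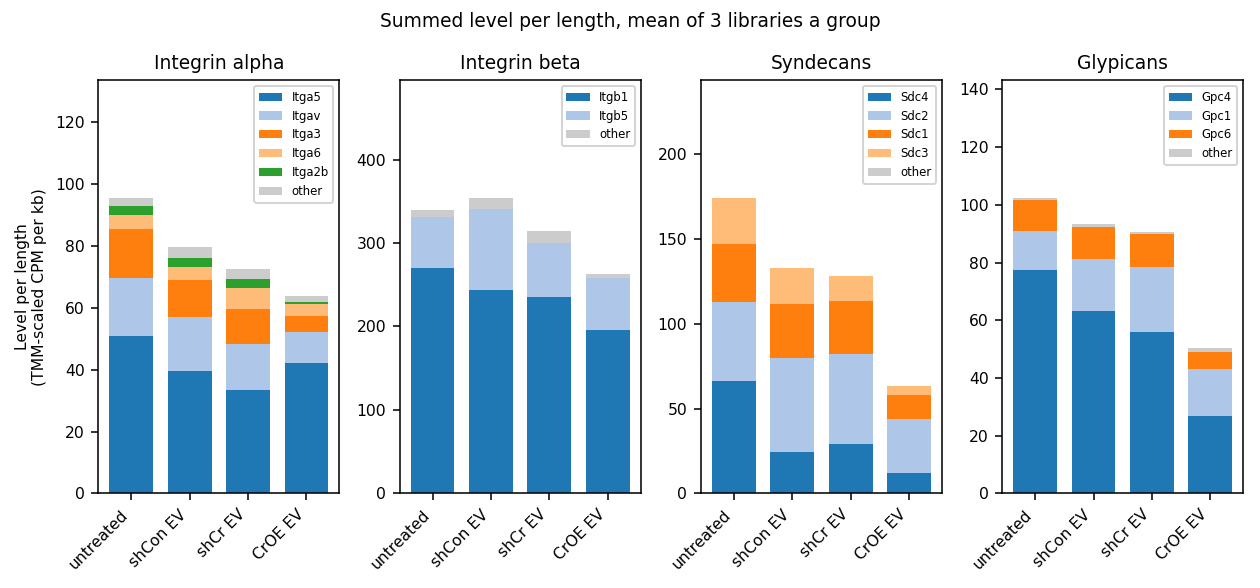
Stacked mean level per length (TMM-scaled CPM per kilobase of exon, vertical axis from 0) of integrin alpha chains, integrin beta chains, syndecans and glypicans in the 4 groups, 3 libraries each, with genes under 3% of their family in every group pooled as other. The Sdc4 block shrinks from 38.2% of the syndecans in untreated cells to 19.3% with CrOE EVs, while the Gpc1 block grows from 13.3 to 32.4% of the glypicans.

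The genes that act with these receptors were counted in lists of known partners, to be read against 38.1% of all genes called with shCon EVs (18.0% higher, 20.2% lower) and 73.7% with CrOE EVs (36.7% higher, 37.0% lower). Of 31 tested integrin adaptors of the focal adhesion, 20 were called with shCon EVs (6 higher, 14 lower) and 24 with CrOE EVs (6 higher, 18 lower), the latter a share near that of all genes, with a median log2 fold change of -0.20 and -0.45, against 0.01 for all genes in each. Vcl, which ties integrins to actin, fell from 493 ± 4.34 to 295 ± 2.45, 324 ± 30.2 and 174 ± 2.34 CPM with shCon, shCr and CrOE EVs. Tns1, a linker of fibrillar adhesions, fell with CrOE EVs (-1.84), as did Dab2, an adaptor for taking up β1 integrins (-1.96). The kinase Ptk2 (0.59) and its partner Git1 (1.06) rose there, Git1 also with shCon EVs (0.31). Tns2 rose with shCon EVs (0.62, adjusted p = 0.00201) and shCr EVs (0.42) and fell with CrOE EVs (-1.03).

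Of 17 lateral partners and tetraspanins, 10 were called with shCon EVs (3 higher, 7 lower) and 16 with CrOE EVs (3 higher, 13 lower), against 38.1 and 73.7% of all genes. Slc3a2, which binds beta chains and carries amino acid transporters, was at 170.4 ± 17.7 CPM in untreated cells, 318 ± 13.8 with shCon EVs, 303 ± 13.4 with shCr EVs and 2599.5 ± 131 with CrOE EVs (log2 3.93, adjusted p = 4.61e-13). Cav1, the coat protein of caveolae, fell from 344 ± 3.88 to 188 ± 4.55, 189 ± 9.39 and 56.4 ± 0.751 CPM, and the tetraspanin Cd82 fell with CrOE EVs (-2.29). Emp2 rose with shCon (0.45), shCr (0.47) and CrOE EVs (1.06). Of 27 matrix ligands of integrins, 15 were called with shCon EVs (8 higher, 7 lower), 10 between shCr and shCon EVs (3 higher, 7 lower, against 8.73% of all genes) and 21 with CrOE EVs (2 higher, 19 lower, with a median of -1.14 against 0.01 for all genes, of which 73.7% were called). Among them were Postn, a ligand of αv chains, at 359 ± 32.7, 945 ± 47.2, 575 ± 54.4 and 31.2 ± 2.16 CPM in untreated, shCon EV, shCr EV and CrOE EV cells, and Spp1, another, at 777 ± 70.4, 288 ± 4.41, 250.4 ± 29.9 and 74.3 ± 4.28. Npnt, the ligand of α8, fell from 38.8 ± 5.81 CPM in untreated cells to 19.1 ± 1.65, 24.4 ± 2.33 and 1.36 ± 0.452 with shCon, shCr and CrOE EVs. Thbs1 fell with shCon (-0.50), shCr (-0.38) and CrOE EVs (-3.97). Ctgf rose with shCon (0.45) and CrOE EVs (1.32) and fell with shCr EVs (-0.58). Mfge8 rose with shCon (0.44), shCr (0.63) and CrOE EVs (0.27).

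The enzymes that build heparan sulfate on syndecans and glypicans changed in both directions. Of 7 genes of the linker, 3 were called with shCon EVs and 6 with CrOE EVs (2 higher, 4 lower), against 38.1 and 73.7% of all genes. Pxylp1, the phosphatase that frees the linker for chain growth, fell with CrOE EVs from 64.3 ± 2.52 to 8.57 ± 0.256 CPM (-2.91, adjusted p = 5.88e-13), and the transferases B4galt7 (0.85) and B3gat3 (0.63) rose. With shCon and shCr EVs, Pxylp1 also fell (-0.16 and -0.22), and B4galt7 (0.18 and 0.24) and B3gat3 (0.34 and 0.40) also rose. Of 17 genes of chain synthesis and sulfation, 6 were called with shCon EVs (1 higher, 5 lower) and 15 with CrOE EVs (5 higher, 10 lower), against 38.1 and 73.7% of all genes. Glce, the epimerase that makes iduronic acid, rose from 27.5 ± 3.16 to 43.6 ± 0.734, 36.1 ± 5.22 and 144 ± 8.01 CPM with shCon, shCr and CrOE EVs. The polymerase subunit Ext2 fell with shCr (-0.17) and CrOE EVs (-0.91). Hs6st2, a sulfotransferase, fell with shCon (-0.63), shCr (-0.72) and CrOE EVs (-0.53).

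Of 11 genes that edit the chains or release the core proteins, 7 were called with shCon EVs (5 higher, 2 lower) and 10 with CrOE EVs (1 higher, 9 lower, with a median of -1.36 against 0.01 for all genes), where 38.1 and 73.7% of all genes were. Notum, a lipase reported to cut glypicans from their anchor, fell from 12.7 ± 0.602 to 5.34 ± 0.354, 7.49 ± 0.81 and 0.299 ± 0.0938 CPM with shCon, shCr and CrOE EVs. Mmp2, a protease able to shed syndecans, rose from 940.3 ± 28.8 to 2248 ± 25.6 and 1956 ± 75.6 CPM with shCon and shCr EVs and fell to 183 ± 9.67 with CrOE EVs. Gpld1, another enzyme that cuts lipid anchors, rose with shCon (0.49), shCr (0.46) and CrOE EVs (0.89). Mmp9 fell with shCr (-0.43) and CrOE EVs (-3.03). Of 6 other heparan sulfate proteoglycans, 4 were called with shCon EVs (2 higher, 2 lower) and 6 with CrOE EVs (1 higher, 5 lower), against 38.1 and 73.7% of all genes. Agrn, a matrix proteoglycan, rose with shCon (1.11) and shCr EVs (0.91) and fell with CrOE EVs (-0.45). Tgfbr3, the TGFβ co-receptor, fell with shCon (-0.54), shCr (-0.31) and CrOE EVs (-2.26). Nrp2 rose with shCon (0.36), shCr (0.44) and CrOE EVs (0.43). Of 11 cytoplasmic partners of syndecans, 6 were called with shCon EVs (2 higher, 4 lower) and 11 with CrOE EVs (3 higher, 8 lower), against 38.1 and 73.7% of all genes. The kinase Prkca, which binds syndecan 4, fell with shCon (-0.40), shCr (-0.40) and CrOE EVs (-0.70). Tiam1 also fell with shCon (-0.28), shCr (-0.86) and CrOE EVs (-0.91), as did Actn4 (-0.40, -0.58 and -0.99). Gipc1 rose with shCr (0.19) and CrOE EVs (0.27), and Synj2bp with CrOE EVs (0.34). Ezr rose with shCon (0.41) and shCr EVs (0.42) and fell with CrOE EVs (-0.67). These lists were chosen with earlier results of the same data known, so their counts describe the lists and give no independent support for a direction.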

How the data were processed

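The deposited table holds estimated counts per gene symbol for 12 libraries of 3T3 cells. The authors' values are not scaled between libraries, and 39.8% of them are not whole. The submitters' processing notes name featureCounts and mm39, with no version or role; the annotation, the use of strand and the treatment of reads that match several genes are not given in the sources used here. Per the labels, libraries were made from poly(A) RNA with a directional kit. Among the symbols, 27 look like dates, as a spreadsheet writes them, and none is a member.

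The counts were rounded and tested in R 4.3.3 with edgeR 4.0.16: filterByExpr over the 4 groups with a minimum count of 10 (14279 genes kept), TMM scaling, 1 mean per group, the quasi-likelihood F-test with 8 residual degrees of freedom, and Benjamini-Hochberg adjustment over all genes tested, in 6 comparisons and 1 joint test. The biological coefficient of variation was 8.90%. Intervals are at 95%; counting intervals cover counting error only. A group was taken as undetected where each library had at most 3 counts. Lengths, overlaps and shared 31-base stretches came from GENCODE M21 on GRCm38, a build other than that of the files, so no coordinates are given. The steps were tested on simulated counts with known changes in the shCon EV group only. Against untreated cells, 85 of 100 changes of 1.5-fold and 98 of 100 of 2-fold were recovered, with 7 false calls among 14032 genes. A shift as wide as that with CrOE EVs was not simulated.

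Members, lists and tests were chosen with earlier results of these data known. Every tested member is named. From each list of partners, the genes with the largest calls were named (the top 2 rises and top 2 falls with CrOE EVs and the top rise and fall with shCon EVs, among genes whose average log2 CPM was 1 or more), and some of these are not described. Alternatives were DESeq2 1.42.0 and its size factors, other filters, a replicate block, a model of only the groups compared, each library left out in turn, and the longest transcript as length.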

Additional observations from a re-analysis of the deposited data

How the results depend on the processing

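Across 3403 results of single members under the alternatives, 3284 kept their side of the threshold, 71 lost a call and 48 gained one. The sign changed in 58 results, in 23 pairs of member and comparison, of which 0 were called in either fit. Of 192 pairs of member and comparison, 165 kept their call throughout. Between shCr and shCon EVs, the 5 called members became 9 with the DESeq2 Wald test and 8 with the replicate block. Both sets held all 5, and the cause was not tested. Of all genes, 11% were called there by the DESeq2 Wald test and 8.97% with the block, against 8.73% in the main fit. Leaving out 1 library at a time gave 4 to 7 calls there, where 4.37 to 9.58% of all genes were called. Against untreated cells it gave 12 to 19 for shCon EVs, 13 to 17 for shCr EVs and 24 to 26 for CrOE EVs. The shares of all genes called against untreated cells were 29.4 to 46.6, 29.2 to 46 and 69.1 to 77%. Leaving out 1 library gave 24 to 27 for CrOE against shCon EVs, 26 to 27 for CrOE against shCr EVs and 27 to 29 in the joint test. Of all genes, 67.4 to 76%, 69.8 to 75.5% and 77 to 84.9% were called in these. Without shCr EV replicate 1, the counts were 19, 17 and 26 against untreated cells for shCon, shCr and CrOE EVs, and 6 between shCr and shCon EVs. The shares of all genes called in that fit were 46.6, 46, 77 and 9.58%, each above that of the main fit.

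Replicate numbers were not taken to pair libraries: deviations of same-numbered libraries correlated at -0.204 to 0.315, those of other numbers at -0.364 to 0.350, and 5 of 12 libraries correlated best with their own number. With the block, calls against untreated cells were 15, 16 and 26 for shCon, shCr and CrOE EVs, against 39.9, 38.7 and 74.6% of all genes. It gained Gpc2 with shCon EVs (adjusted p = 0.0307), Itgb1 (0.0463) and Sdc1 (0.0317) with shCr EVs and Itga11 with CrOE EVs (0.0417). Between shCr and shCon EVs it gained Itga1 (0.0495), Itga5 (0.0333) and Itga11 (0.0497). It lost Itga7 (0.0651) and Itgb4 (0.0622) with shCon EVs and Itgb4 with shCr EVs (0.0618). The joint test could not be run in a model of only the groups compared. Genes with few counts, such as Itga2, Itgad, Itgam and Gpc3, were limited by depth.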
